A study of Homo sapiens with 6 samples.

Results

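The genes described here are 8 components of non-homologous end joining: XRCC6, XRCC5, PRKDC, DCLRE1C, POLL, XRCC4, NHEJ1 and LIG4. They were taken by name, and each peak was given to a gene when its summit lay in the gene body of the GENCODE annotation or up to 4 kb past its 3′ end. This gave 138 of the 200023 peaks in the list. Of these, 113 passed the cutoff the study itself used, a −log10 q-value of 5 or more, as did 138277 peaks in all. The values below are for these 113 unless another cutoff is named. The peaks came from poly(A) 3′-seq, which reads the end of a polyadenylated RNA, in IMR-32 cells, a human neuroblastoma line with amplified MYCN. The study had 6 libraries in 3 groups of 2, which were a DMSO (solvent) control and exposures of 2 h and of 6 h to THZ531 at 400 nM. This compound binds the transcriptional kinases CDK12 and CDK13 covalently and blocks them, and the study asked where transcripts end in its presence. The authors called the peaks once on the merged reads, taken here to be those of all 6 libraries, and the list carries no strand. It therefore shows where reads that can mark RNA ends were found in at least some of these cells. No value below compares treated with untreated cells or has a replicate error.

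Many double-strand breaks that are not repaired from a sister copy are rejoined by non-homologous end joining. The Ku heterodimer of Ku70 (XRCC6) and Ku80 (XRCC5) binds the broken ends and recruits the catalytic subunit of DNA-dependent protein kinase (PRKDC), which activates the nuclease Artemis (DCLRE1C). Polymerases such as DNA polymerase lambda (POLL) fill gaps, and DNA ligase IV (LIG4) seals the break together with its partner XRCC4 and with XLF (NHEJ1). The pathway acts in most cells and also joins V(D)J segments in lymphocytes.

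The label of the line was set against marker genes. Of 10 neuroblastoma and sympathoadrenal genes, 10 had a transcript-end peak, among them PHOX2A with 123 reads at the summit and MYCN with 100. Of 8 markers of other cell types, COL1A1 (15 reads) and EPCAM (7 reads) had one. The depth of single libraries is unknown. If the peak caller ran with its default human genome size, the merged reads it kept numbered about 9100000.

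The height of a peak is given as reads at the summit, the number of reads (each extended to 100 bp) over its highest base, solved from the deposited fold enrichment and −log10 p-value. MACS2 by default keeps 1 read per position and strand, so heights are compressed and are not expression levels. Reads start at the cleavage site. The edge of a peak nearest the 3′ end of its gene, here called the 3′ edge, therefore marks the site in a narrow peak. A wide peak can join several sites, and its edge then marks only the last of them. Polyadenylation signals are given by the distance from the first base of the hexamer to this edge. Where the summit lies more than 100 bp from the edge, the height comes from an earlier site that this distance does not describe. Such peaks include the tallest of XRCC5, PRKDC and LIG4, that of XRCC6 intron 2 and that at the DCLRE1C canonical end. The sequences at the sites on which the results turn are shown first, from the GRCh38 reference and on the strand of the gene, so that the signal can be seen next to the site. No sequence is shown for PRKDC. Each of the following transcript-end sites is 30 bases long and, except for XRCC6, ends at the 3′ edge. Capitals mark any of the 12 hexamers that the study used as signals.
XRCC6 end, chr22:41664003-41664032: ctttactgcctgAATAAAgagccctaagtt
XRCC5 proximal site, chr2:216205515-216205544: cttgacctagtatatcagtgacagttgcag
XRCC5 canonical end, chr2:216206259-216206288: acATTAAAggCATAAAtgactcatctctct
DCLRE1C end, chr10:14904425-14904454: actgggggcaacctgtaaacctacaacctt
POLL end, chr10:101578881-101578910: gggcccAGTAAAgtgcatttgacattgaac
XRCC4 end, chr5:83353732-83353761: tctgatAATAAAatttttgatacattgaag
NHEJ1 inner end, chr2:219075309-219075338: taataagaacaacaatAATAAAtagctaac
LIG4 end, chr13:108207445-108207474: aatttaAATAAAatatttaatgcactatta

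The XRCC4, LIG4 and NHEJ1 sites hold the canonical AATAAA, POLL holds the variant AGTAAA, and the XRCC5 canonical end holds ATTAAA and CATAAA. In XRCC6 the window ends 40 bp before the edge, because AATAAA began 57 bp from it. The XRCC5 proximal site and the DCLRE1C site hold none of the 12 hexamers in these letters. In both, the summit lay more than 100 bp before the edge, so the letters do not show the site that gave the height. The next sequences are the tallest intronic sites of XRCC5, DCLRE1C and NHEJ1, shown because they are candidate ends inside the genes. Those of XRCC5 and NHEJ1 are 120 bases long with the 3′ edge at base 70, so that both the signal before the site and the genomic bases after it are visible. The DCLRE1C site lies in an exon of the neighbouring gene SUV39H2 and had hexamers on both strands, so it may belong to either gene. It is shown as 30 bases that end at the edge.
XRCC5 intron 14, chr2:216148873-216148992: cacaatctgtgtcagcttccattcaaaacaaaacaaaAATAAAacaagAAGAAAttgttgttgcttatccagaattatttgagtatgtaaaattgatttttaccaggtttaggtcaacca
DCLRE1C past the canonical end, chr10:14902952-14902981: caAATACAagtacagtgagtATTAAAcagg
NHEJ1 intron 5, chr2:219145513-219145632: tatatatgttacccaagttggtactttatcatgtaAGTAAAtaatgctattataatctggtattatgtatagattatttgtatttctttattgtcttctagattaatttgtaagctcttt

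The XRCC5 intron 14 site had AATAAA 32 bp before the edge and at most 10 A in any 25 bases within 50 bp after it. An XRCC5 intron 16 site, chosen after its values were seen, and the tallest XRCC4 site, in intron 3, were the reverse, with no hexamer in the 100 bp before the edge and with 24 and 21 A in 25 bases after it. A poly(A) tail and a genomic A stretch can both be primed by oligo(dT), and which of them gave the reads at such a site was not tested.

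Peaks were classed by the place of their summit in the transcripts of the gene, in the order transcript end (200 bp before to 600 bp past an annotated end), exon, intron and downstream (the rest of the 4 kb). The 113 peaks comprised 23 at transcript ends, 20 in exons, 66 in introns and 4 downstream. They were 100 to 434 bp wide with a median of 115 bp, and had 7 to 66 reads at the summit with a median of 15. All 8 genes had a transcript-end peak, against 64.0% of 20046 protein-coding genes (12834 genes, called detected below). Introns held a peak in 7 of the 8, against 79.7% of the detected genes with intronic sequence, and LIG4 was the exception. The share of peaks in introns was 58.4% (95% Wilson interval 49.2 to 67.1), and over all detected protein-coding genes it was 63.3%. Transcript ends held 20.4% (14 to 28.7) of the peaks, against 21.9%. Both intervals, which cover counting error only, include the value over all detected genes. Exons held 17.7% (11.8 to 25.8), against 10.2% over all detected genes, a value that lies below the interval. Of the 20 exonic peaks, 7 were in PRKDC and 4 in LIG4.

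**Figure D1:**
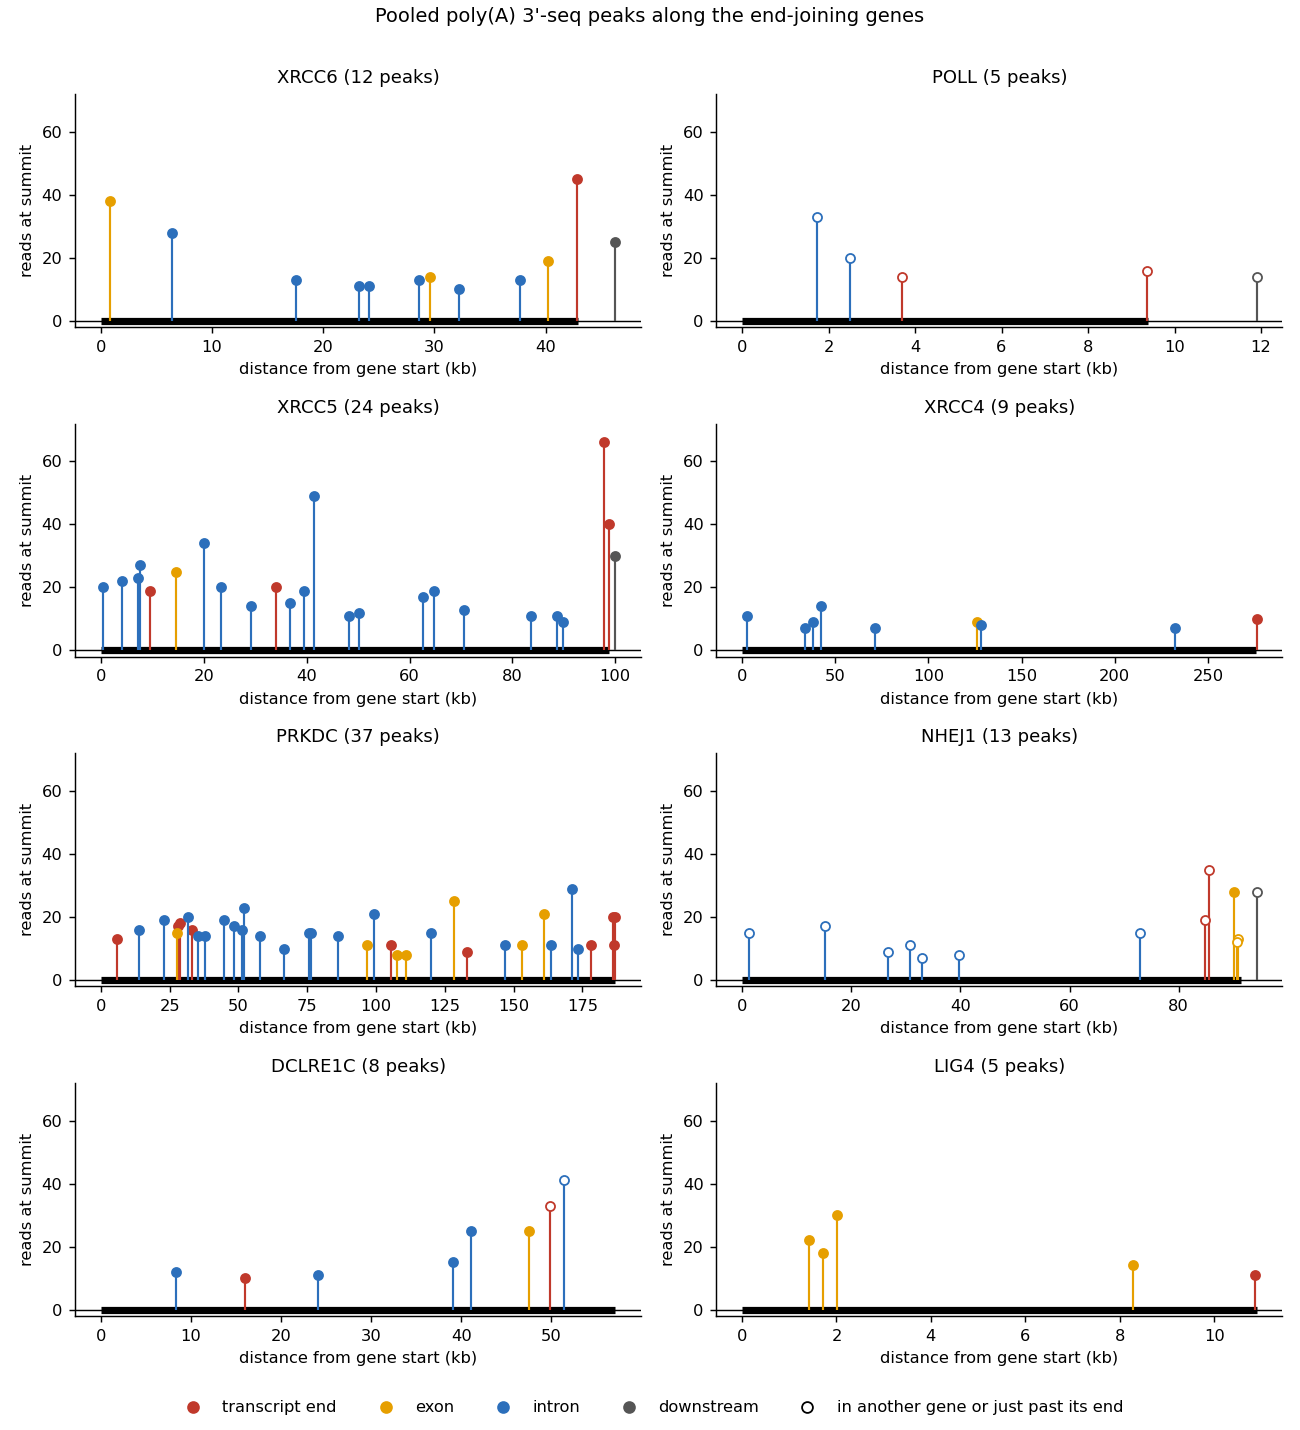
Reads at the summit of each peak (vertical axis) against the distance of the summit from the start of the gene in kb (horizontal axis), 1 panel for each of the 8 genes, all libraries pooled. Colours give the class of the peak, open circles mark summits that also lie in another gene or up to 600 bp past its 3′ end, and the black bar is the gene; XRCC5 has the tallest peak with 66 reads, and the 5 peaks of POLL are all open.

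The Ku genes had the tallest ends. XRCC6, which encodes Ku70, lies on chromosome 22 (chr22:41621163-41664048, plus strand, 42.9 kb) and had 12 peaks. Its transcript-end peak in the 3′ UTR of exon 13, at chr22:41663925-41664072, had 45 reads, more than the tallest end of 86.9% of the other detected genes. The next in height was at the other end of the gene. A peak of 38 reads lay over the start of the coding sequence in exon 2 (chr22:41621946-41622065), 0.84 kb from the start of the gene, with none of the hexamers before its 3′ edge. Intron 2 held a peak of 28 reads at chr22:41627343-41627773, with AGTAAA 63 bp from the edge. The other 6 intronic peaks of XRCC6 had 10 to 13 reads, and 4 of the 7 lay before an A-rich stretch of at least 18 A and lacked a hexamer. Intronic peaks over all detected genes had a median of 12 reads (quartiles 9 and 17), so these 6 were of ordinary height and the peak in intron 2 was above the upper quartile. A further peak of 25 reads lay downstream at chr22:41667349-41667465, 3424 bp past the canonical end.

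XRCC5, which encodes Ku80, lies on chromosome 2 (chr2:216107464-216206303, plus strand, 98.8 kb) and had 24 peaks, 18 of them intronic. Its last exon carried a pair of 3′ UTR peaks. The proximal one, at chr2:216205279-216205544, had 66 reads and ended 749 bp before the canonical end, while the distal one, at chr2:216205952-216206288, had 40 reads and ended 5 bp before it. The nearest annotated end to the proximal peak belonged to the retained-intron transcript XRCC5-206, 121 bp before its 3′ edge. The proximal peak was the tallest of all 113 and exceeded the tallest end of 97.8% of the other detected genes. In the 100 bp before its edge it had no hexamer, while the distal one had ATTAAA 27 bp and CATAAA 19 bp before its edge. The summit of the proximal peak lay more than 100 bp before its edge. The bases before the site that gave its height were therefore not searched, and the pair cannot be compared in this.

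Inside the introns of XRCC5, heights ran from 9 to 49 reads with a median of 18. The tallest, with 49 reads, was in intron 14 at chr2:216148796-216148942, downstream of exons that encode 556 of the 732 residues. No annotated end of XRCC5 lay near it: the closest, that of XRCC5-207, was 7623 bp upstream. XRCC5-207 itself ends in intron 13, and the peak there, at chr2:216141400-216141533, had 20 reads with AATAAA 21 bp before its edge. The only exonic peak of XRCC5, in coding exon 6 at chr2:216122058-216122193, had 25 reads with ACTAAA 44 bp before its edge. Intron 7 held a peak of 34 reads with no hexamer, at chr2:216127474-216127603. Of the 18 intronic peaks, 10 had a hexamer and 5 had AATAAA. Intron 16 held 3 peaks, of which 1 (17 reads) preceded the stretch of 24 A in 25 bases given above. Downstream, a peak of 30 reads at chr2:216207421-216207537 had AATAAA 38 bp before its edge, 1244 bp past the canonical end. XRCC5 thus had peaks with a signal and no annotated end both inside the gene and past it.

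PRKDC, the catalytic subunit of the kinase, is the gene with the most peaks of the 8. It lies on chromosome 8 (chr8:47773111-47960178, minus strand, 187 kb), its canonical transcript has 86 exons and encodes 4128 residues, and it held 37 peaks. Its last exon had 3 transcript-end peaks. That at the canonical end, at chr8:47773111-47773224, had 20 reads and AATAAA 19 bp before its edge. A second of 20 reads ended 838 bp before the canonical end, and a further one of 11 reads ended 588 bp before it, each with AGTAAA. In the second, the summit lay more than 100 bp from the edge, so its AGTAAA was not before the site that gave the height. The other 7 transcript-end peaks had 9 to 18 reads and lay at ends of shorter transcripts. Of these, 6 were in canonical introns at ends of retained-intron transcripts. The remaining one, in coding exon 5, was at PRKDC-209, whose 3′ end is annotated as incomplete. These heights were modest: 32.6% of the other detected genes had a lower tallest end.

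The tallest peak of PRKDC was intronic. It had 29 reads and lay in intron 75 at chr8:47788798-47789115, downstream of exons for 3586 of the 4128 residues, with ATTAAA 23 bp before its edge. Its summit lay more than 100 bp from that edge, so this hexamer was not before the site that gave the height. The next in height was in coding exon 60 with 25 reads, at chr8:47831817-47831932. The 20 intronic peaks had 10 to 29 reads with a median of 15, and 9 of them lay where less than 25% of the coding sequence was upstream. Of the 20, 13 had a hexamer and 8 had AATAAA, and 3 preceded at least 18 A in 25 bases. Their median was above the 12 reads of intronic peaks over all detected genes and below the upper quartile of 17, and they lay along most of the gene. Intronic peaks with a hexamer occurred as early as intron 11, where a peak of 19 reads at chr8:47937331-47937451 had AATAAA 10 bp and 29 bp before its edge. Exons for 371 of the 4128 residues lie upstream of it.

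Of the genes for end processing, DCLRE1C encodes the nuclease Artemis. It lies on chromosome 10 (chr10:14897359-14954432, minus strand, 57.1 kb) and had 8 peaks. The tallest, with 41 reads at chr10:14902952-14903098, lay 1661 bp past the end of the canonical transcript, in an intron of longer transcripts. This peak also lies in the last part of SUV39H2, a histone methyltransferase gene on the other strand that ends toward DCLRE1C. For DCLRE1C it had ATTAAA 9 bp before its edge, and read for the opposite strand it had ATTAAA 26 bp and TATAAA 32 bp before its edge. The peak at the canonical end, at chr10:14904425-14904610 with 33 reads, lies just past the end of SUV39H2. Read for the opposite strand, it had AGTAAA 7 bp before its edge. For DCLRE1C it had no hexamer in the 100 bp before the edge, but that edge lay more than 100 bp past the summit. Since the list has no strand, the reads of these peaks cannot be assigned to either gene.

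Among the 6 peaks of DCLRE1C that no other gene shares, the highest had 25 reads each. One was in the 3′ UTR of exon 14 at chr10:14906875-14906989, 2262 bp before the canonical end, with AATAAA 16 bp before its edge. The other was in intron 13 at chr10:14913313-14913426, with CATAAA 71 bp from its edge, where exons upstream encode 385 of the 692 residues. The remaining 4 had 10 to 15 reads. The unshared peaks were therefore as high in the last intron as in the last exon.

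POLL, the gene of DNA polymerase lambda, is the shortest of the 8 (chr10:101578882-101588270, minus strand, 9.39 kb). All of its 5 peaks lay within DPCD, a gene on the other strand that spans it. The end of the canonical transcript had 16 reads at chr10:101578881-101578987, with AGTAAA 23 bp before its edge and no hexamer on the strand of DPCD. Intron 2 had more, 33 reads at chr10:101586481-101586603, with AAGAAA 14 bp before its edge and 17 A in 25 bases after it. Intron 3 had a peak of 20 reads, and the others had 14 each, of which the one downstream lay at chr10:101576322-101576427. Here too the strand cannot be read from the list.

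XRCC4 is the longest and had the lowest peaks. It encodes the partner of the ligase, lies on chromosome 5 (chr5:83077498-83353787, plus strand, 276 kb) and had 9 peaks of 7 to 14 reads. Its end was clear but small: 10 reads at chr5:83353657-83353761, 1 bp past the canonical end, with AATAAA 23 bp before the edge. Of the other detected genes, 4.91% had a lower tallest end. The 7 intronic peaks had a median of 8 reads. Intron 3, upstream of which exons encode 105 of the 334 residues, held 3 of them, including the tallest with 14 reads at chr5:83119900-83120024. Of the 7, 4 preceded at least 18 A and lacked a hexamer, 2 had a hexamer, and 1 had neither. The only exonic peak had 9 reads and lay in coding exon 5 at chr5:83203522-83203635, with AAGAAA 7 bp before its edge. No XRCC4 peak was shared with another gene. Without the cutoff on q, XRCC4 had 17 intronic peaks, so 10 of them were below it.

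NHEJ1, which encodes XLF, lies on chromosome 2 (chr2:219069355-219160869, minus strand, 91.5 kb) and had 13 peaks. It was the only member with none within the window of its canonical end. The tallest, with 35 reads at chr2:219075309-219075448, ended 8 bp past the end of a shorter transcript, NHEJ1-202, with AATAAA 13 bp and 42 bp before its edge, and 5952 bp before the canonical end. A second peak, of 19 reads, ended 6590 bp before the canonical end. In the canonical transcript both places are in the long 3′ UTR of exon 8. Further along the same 3′ UTR there were peaks of 28, 12 and 13 reads, the first at chr2:219070682-219070800 with ATTAAA 15 bp before its edge. A downstream peak of 28 reads lay at chr2:219066519-219066642, with AATAAA 49 bp before its edge. The downstream peak lies in a long noncoding RNA gene on the other strand. The 13-read peak spans the end of that gene and the 12-read peak lies past it, within 600 bp.

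Of the 7 intronic peaks of NHEJ1, 6 lay in intron 5, beyond exons for 196 of the 299 residues, and 1 in intron 1. They had 7 to 17 reads, the tallest at chr2:219145563-219145677 with AGTAAA 34 bp before its edge. All 7 also lie in an unnamed protein-coding gene on the same strand, whose body runs across the introns of NHEJ1 and ends at the 35-read peak. Among the members with intronic peaks, NHEJ1 was the one in which the intronic peaks stood lowest against the end, at 0.486 times its height.

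LIG4, the ligase gene, lies on chromosome 13 (chr13:108207439-108218368, minus strand, 10.9 kb), and its coding sequence is in 1 exon. It had 5 peaks and none in an intron. The end peak at chr13:108207445-108207546 had 11 reads and AATAAA 23 bp before its edge. A peak of 14 reads lay within the coding sequence in exon 3, at chr13:108210012-108210237. The 3 taller peaks, with 30, 18 and 22 reads, were between chr13:108216002-108216435 and chr13:108216919-108217046. These are exons of transcripts that start farther upstream than the canonical one, so in LIG4 the highest signal lay at the 5′ side of the gene. AATAAA was 38 bp before the edge of the peaks with 18 and 22 reads. No hexamer lay in the 100 bp before the edge of the one with 30, whose summit was more than 100 bp from that edge. Read for the opposite strand, the 30-read peak had AATAAA 56 bp and 61 bp before its edge. Part of another gene, ABHD13, lay in the 10 kb around each of the 3 peaks, and the list has no strand.

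Ordered by the tallest transcript-end peak, the genes ran XRCC5 (66 reads, 95% Poisson interval 51.0 to 84.0), XRCC6 (45, 32.8 to 60.2), NHEJ1 (35, 24.4 to 48.7), DCLRE1C (33, 22.7 to 46.3), PRKDC (20, 12.2 to 30.9), POLL (16, 9.15 to 26.0), LIG4 (11, 5.49 to 19.7) and XRCC4 (10, 4.80 to 18.4). Each interval overlaps that of its neighbour in this order, and the intervals cover counting error in pooled reads only. They treat heights as counts of independent reads, although MACS2 by default keeps 1 read per position and strand, so they are approximate. The median over all detected genes was 25 reads (quartiles 17 and 36), so 4 members were above it and 4 below.

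In PRKDC, DCLRE1C, POLL and XRCC4 the tallest intronic peak was at least as high as the tallest transcript-end peak. That is 4 of the 7 members with an intronic peak, against 38.3% of the detected genes with one. The ratio of intronic to transcript-end height was 2.06 in POLL, 1.45 in PRKDC, 1.40 in XRCC4 and 1.24 in DCLRE1C. In XRCC5, XRCC6 and NHEJ1 it was 0.742, 0.622 and 0.486. The 95% binomial (Clopper-Pearson) interval of the ratio was 1.10 to 4.01 in POLL and 0.255 to 0.891 in NHEJ1, and it included 1 in the other 5 genes. It covers counting error only, treats heights as counts of independent reads, and does not allow for each height being the tallest of several peaks. Without the peaks that another gene shares (summit in that gene or up to 600 bp past its 3′ end), the end and introns of POLL and NHEJ1 have no peak and the count is 3. DCLRE1C is still among these, but without its canonical-end peak of 33 reads and its intronic peak of 41. What is left is 25 reads in an intron against 10 at the end of a retained-intron transcript.

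**Figure D2:**
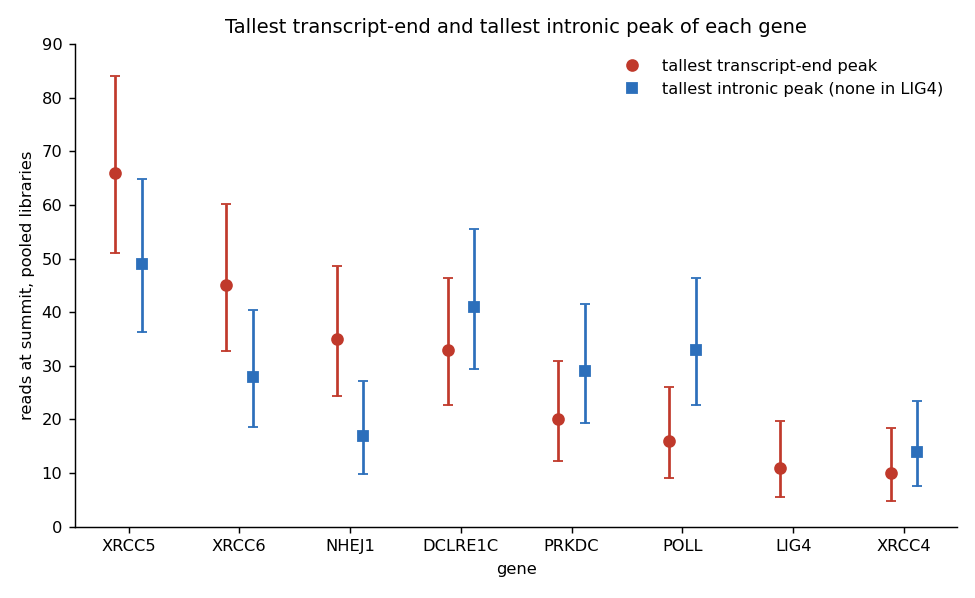
Reads at the summit of the tallest transcript-end peak (circles) and the tallest intronic peak (squares) of each gene in the pooled libraries, with 95% Poisson intervals as bars. The circles fall from 66 reads in XRCC5 to 10 in XRCC4, the squares lie above the circles in DCLRE1C, PRKDC, POLL and XRCC4, and the bars, which are those of each height and not of the ratio, overlap in each pair.

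A peak downstream of the last annotated end (600 to 4000 bp past it) was present in 4 of the 8 genes, namely XRCC6, XRCC5, POLL and NHEJ1, against 31.6% of detected genes. These had 25, 30, 14 and 28 reads. Those of XRCC5 and NHEJ1 had AATAAA, and those of XRCC6 and POLL had no hexamer and 18 A in 25 bases past the edge. Only the XRCC6 and XRCC5 peaks lay outside other genes.

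Longer genes offer more intronic sequence, so each member was set beside the 500 detected genes nearest to it in length. XRCC5 had 18 intronic peaks, where those genes had a median of 9 (quartiles 6 and 13), and 92.6% of them had fewer. XRCC6 had 7 against a median of 4 (2.75 and 6), and POLL had 2 against 0 (0 and 1). These 3 were above the upper quartile, though both intronic peaks of POLL lie in DPCD. PRKDC, with 20 against a median of 14, DCLRE1C, with 5 against 6, NHEJ1, with 7 against 8, and LIG4, with 0 against 1, were within the quartiles. XRCC4 was the only one below the lower quartile, with 7 against a median of 18 (10.75 and 27). All 7 intronic peaks of NHEJ1 also lie in another gene. When peaks shared with another gene were left out of the members and of the genes beside them, XRCC5 (18 against a median of 7), XRCC6 (7 against 3) and PRKDC (20 against 11) were above the upper quartile and NHEJ1 (0 against 6) was below the lower. POLL, with 0 against 0, and XRCC4, with 7 against 15 (7 and 24), were then within the quartiles. Per kb of intron the members had 0.0949 peaks in all (95% Poisson interval 0.0734 to 0.121), against 0.0862 over all detected genes. XRCC5 had 0.193 per kb (0.114 to 0.305) and XRCC4 0.0256 (0.0103 to 0.0527), and these intervals do not overlap. The genes of like length were not matched in the height of their ends. The tallest end had 66 reads in XRCC5 (median of those genes 24), 45 in XRCC6 (25) and 10 in XRCC4 (21). In POLL it had 16 (28), the other way from its number of intronic peaks. Whether the read level bears on the number of intronic peaks that pass the cutoff was not tested.

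**Figure D3:**
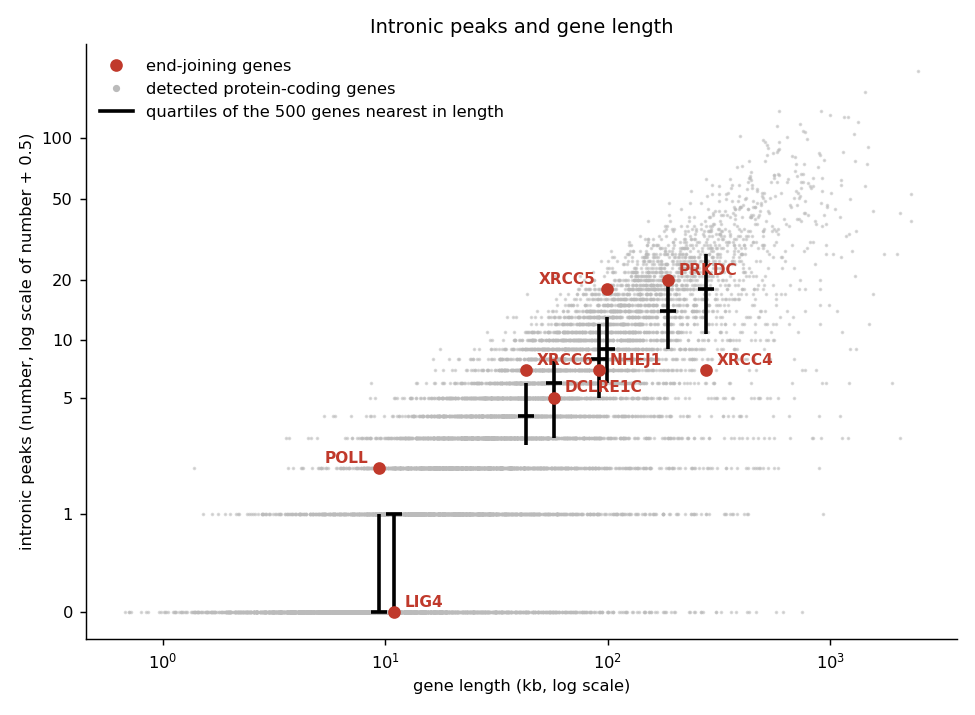
Number of intronic peaks (log scale of the number plus 0.5) against gene length in kb (log scale) for the detected protein-coding genes in grey and the 8 end-joining genes in red. Black bars span the quartiles, with a tick at the median, of the 500 genes nearest in length to each; XRCC5, XRCC6 and POLL lie above their bars and XRCC4 lies below its bar, with peaks shared with other genes included.

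Across the 113 peaks, 61.1% (51.8 to 69.5) had at least 1 of the 12 hexamers in the 100 bp before the 3′ edge, against 63.1% over all detected genes. The same search on the opposite strand found one at 38.9% (30.5 to 48.2) and 43.8%. AATAAA was the most frequent, at 32 peaks, then ATTAAA and AAGAAA at 13 each and AGTAAA at 11. Where a peak had several copies of AATAAA, only the copy nearest the edge was used. Among peaks with AATAAA, the median distance of this copy from the edge was 23 bp in the members and 24 bp over all detected genes. This nearest copy lay 10 to 35 bp before the edge at 16 of those 32 member peaks, against 67.8% over all detected genes. Some member peaks whose nearest copy was closer than 10 bp had another copy in that range, so the 16 is a low count. An XRCC6 peak in intron 8, for example, had AATAAA 8 bp and 12 bp before its edge. At transcript ends alone the nearest copy lay there at 6 of 8, against 76.6%. In transcript-end peaks the share with a hexamer was 65.2% (44.9 to 81.2), against 79.2% over all detected genes. On the opposite strand it was 69.6% (49.1 to 84.4), against 56.1%, so at member ends the share was not higher on the gene strand. Of the 23, 9 were nearest the end of a retained-intron transcript, 7 lay at a canonical end and 2 were nearest the end of a transcript annotated with an incomplete 3′ end.

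A strict genomic A stretch, at least 22 A in 25 bases within 50 bp past the edge, followed 4 of the 113 peaks (3.54%, 1.39 to 8.75), against 4.05%. All 4 were intronic: 2 in XRCC5, 1 in XRCC6 and 1 in PRKDC. None of the 4 had a hexamer, and the study's methods remove peaks of this kind as false positives. They were kept here, and 109 member peaks remain without them. With at least 18 A the share was 17.7%, against 19.8%, and 18 of these 20 peaks were intronic. Of the 66 intronic peaks, 33 had a hexamer and no such A-rich window, 6 had both, 12 had the A-rich window alone and 15 had neither. The first of these classes held 12 of 20 peaks in PRKDC, 8 of 18 in XRCC5, 3 of 7 in XRCC6 and 2 of 7 in XRCC4. The class with the A-rich window alone held 2 of 20, 2 of 18, 4 of 7 and 4 of 7 in the same order. These counts are small, and a difference between genes was not tested.

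**Figure D4:**
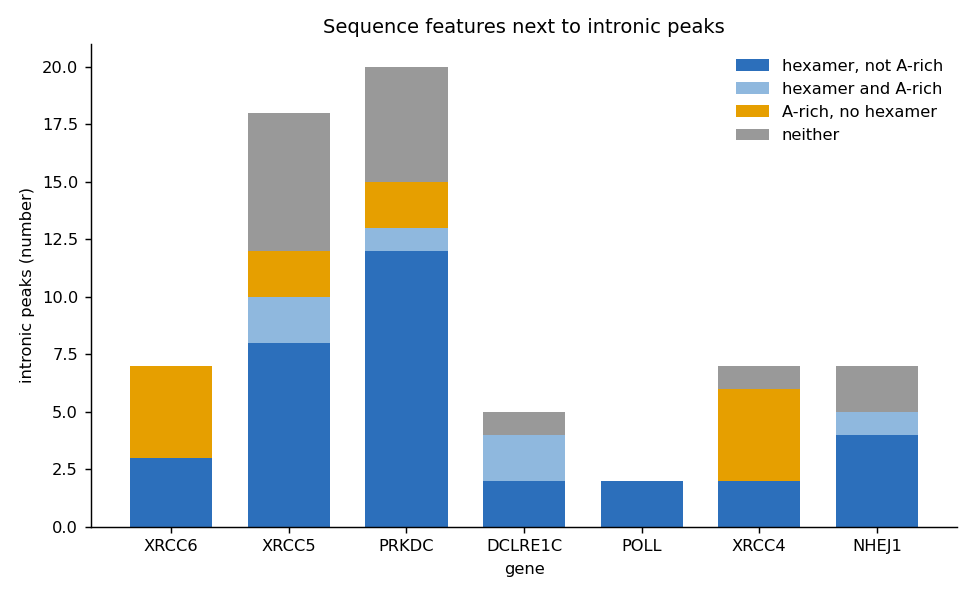
Number of intronic peaks of each gene (LIG4 has none), split by whether 1 of the 12 hexamers lies in the 100 bp before the 3′ edge and whether at least 18 A in 25 bases lie within 50 bp past it. The first class, hexamer and not A-rich, holds 12 peaks in PRKDC and 8 in XRCC5; the class A-rich with no hexamer holds 4 in each of XRCC6 and XRCC4.

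Intronic peaks lay at all depths of the coding sequence. Upstream of the median intronic peak, exons encoded 15.1% of the protein in POLL, 27.7% in PRKDC, 31.4% in XRCC4, 42.2% in XRCC6, 55.6% in DCLRE1C, 65.6% in NHEJ1 and 71.6% in XRCC5. Of the 66 peaks, 3 had no coding sequence upstream, against 19.1% of the intronic peaks of all detected genes. There were 20 with less than 25% upstream (30.3%, 95% Wilson interval 20.6 to 42.2), against 54.9%, and 35 with less than 50% (53.0%, 41.2 to 64.6), against 71.9%. By position rather than coding sequence, 43 of the 66 were in the first 50% of the gene (65.2%, 53.1 to 75.5), against 58.4%. Peaks of 1 gene are not independent, and 18 of the 66 were in XRCC5 and 20 in PRKDC.

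The peak caller's local background, the number of reads in the 10 kb around a summit, gives a coarse profile of the pooled reads along the longer genes. In XRCC5 it was 429 reads at its highest, 9.63 kb from the start, and 46 at its lowest, 89.89 kb from the start, before 297 at the canonical end. In PRKDC it was 245 at its highest, 31.57 kb from the start, and at the floor of 33.7 in places from 111.00 kb onward. In XRCC4 it was 80 at its highest, 37.89 kb from the start, and stood at the floor from 71.31 kb onward, the end included. These 3 profiles had their highest values in the first 50% of the gene and their lowest farther along. However, in PRKDC the background was 103 at the peak nearest the start, 5.76 kb from it, and 132 to 140 at the 3 peaks of the last exon. In DCLRE1C it ran from 41 at its lowest, 24.08 kb from the start, to 326, 47.48 kb from the start. The 10 kb around the 3 highest values (269, 279 and 326) include the end of SUV39H2, and without strand these reads cannot be assigned to either gene. At the other 5 peaks of DCLRE1C it was 41 to 223. In NHEJ1 both ends were high, with 162 at intron 1 and 178 in the last exon, and part of another gene lay in the window of each of its 12 body peaks.

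The rank correlation of local background with position was −0.58 over the 23 body peaks of XRCC5, −0.49 over the 37 of PRKDC and −0.76 over the 9 of XRCC4. It was −0.25 over 11 peaks of XRCC6, 0.36 over 12 of NHEJ1 and 0.81 over 8 of DCLRE1C. Neighbouring peaks share reads of the same 10 kb, so these points are not independent. Leaving out the peaks whose 10 kb held part of another gene gave −0.45 over 18 peaks of XRCC5, −0.49 over 34 of PRKDC, −0.76 over 6 of XRCC4 and −0.03 over 6 of XRCC6, and left 5 in DCLRE1C and 0 in NHEJ1. Where the first and the last 50% of the gene held at least 4 body peaks each, the median background was higher in the first 50% in 2 of 3 members, XRCC5 (240.5 against 76) and PRKDC (143 against 72.5), and lower in NHEJ1 (61.5 against 133.5). Over 3928 detected genes with as many peaks, 61.0% were higher in the first 50%. This comparison was added after the values were seen.

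**Figure D5:**
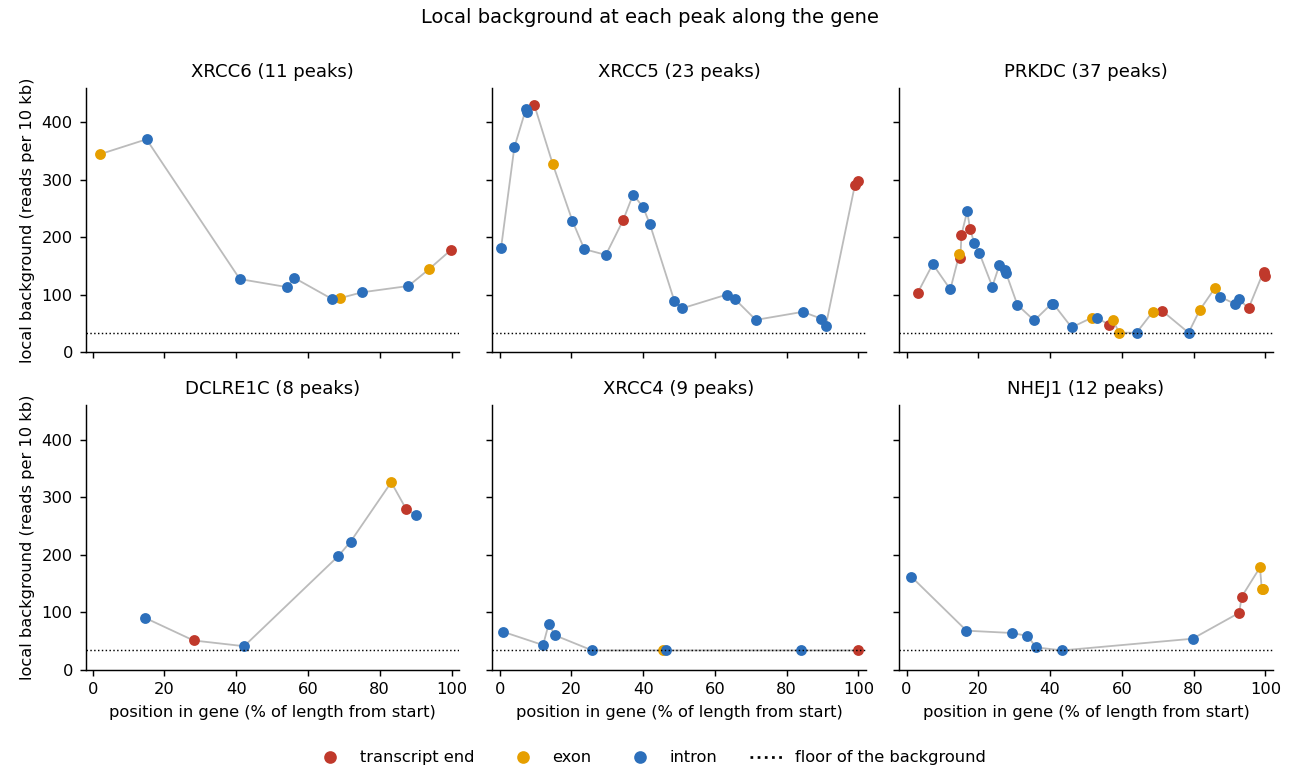
Local background at each peak, in reads per 10 kb (vertical axis), against the position of the summit in percent of the gene length from its start (horizontal axis), for the 6 members with at least 8 peaks, pooled libraries. Points are coloured by class, grey lines join them and the dotted line is the floor of 33.7; XRCC5 reaches 429 near its start, and XRCC4 stays at the floor over most of its length.

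A further 17 genes that act in or beside end joining were examined. Of these, 14 had a transcript-end peak, against 64.0% of protein-coding genes. The exceptions were DNTT, the template-free polymerase of lymphocytes, which had no peak at all, APLF, which had 10 intronic peaks and no end, and the shieldin gene SHLD3. Intronic peaks were present in 12 of the 14, against 79.7% of detected genes. In 4 of the 12 the tallest was at least as high as the tallest end, a share near the 38.3% over detected genes. Those 4 were APTX (39 against 29 reads), SHLD2 (31 against 25), TDP2 (27 against 27) and SHLD1 (14 against 11). Of the 14 with a transcript-end peak, set against the 500 genes nearest in length, TDP2 and TP53BP1 were above the upper quartile, and CYREN was below the lower. TP53BP1, whose protein favours end joining over resection, had 18 intronic peaks where genes of its length had a median of 10. CYREN, which encodes a small protein that binds Ku, had 2 against 7. Of the alternative polymerase POLM there were 5 peaks with none in an intron, and of PAXX, another Ku-binding factor, there were 2.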

How the data were processed

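The data were 6 poly(A) 3′-seq libraries of IMR-32 cells. Per the study's methods and the submitters' processing notes, the authors mapped trimmed reads to GRCh38 with STAR 2.5.1b, keeping reads with up to 20 placements, and called peaks with MACS2 2.1.1 on the merged reads, extended to 100 bp. DeepTools 2.5.4 and SAMtools are also named. The deposited list gives, per peak, a fold enrichment (the ratio of pileup plus 1 to local background plus 1), −log10 p- and −log10 q-values, and the offset of the summit from the start of the peak. No column belongs to 1 library.

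Pileup and background were solved from the deposited fold and −log10 p. Backgrounds below 0.3 were not accepted, because a few peaks have 2 solutions. The largest misfit of −log10 p was 0.000172. Tested on simulated data, 19996 of 20000 pileups and 10000 of 10000 summit classes were recovered. The set used had −log10 q of 5 or more and lay on 1 of the 24 chromosomes or on mitochondrial DNA. Annotation was GENCODE release 44 (the study used release 27), with coordinates 1-based, and canonical means the Ensembl canonical transcript. Shares have 95% Wilson and counts 95% exact Poisson intervals. No test was run, since a pooled list has no replicates. The analysis used Python 3.11.15, pandas 2.3.3, SciPy 1.17.1 and pysam 0.24.0.

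The genes and lists were chosen with earlier results of these data known. By rule, all 8 members were named with the tallest peak of each class, and other genes where they share a peak. A list of 17 further end-joining genes and 18 cell type markers was given as counts, with values for some. A gene left out of these 17 and some intronic sequences are not reported here. A peak was called shared when its summit also lay in another gene or up to 600 bp past its 3′ end. Alternatives changed the q cutoff, the transcript-end window, the transcripts used, shared peaks, the region, the hexamers and the A stretch.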

Additional observations from a re-analysis of the deposited data

How the results depend on the processing

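Of 72 values recomputed under 14 alternatives, 55 stayed within the interval of the value given or, for counts, within 1.5 times it. No cutoff on q gave 0.129 intronic peaks per kb. With −log10 q of at least 20, 15 member peaks were left, with 40.0% in introns, 33.3% at transcript ends, 0 with an A stretch and 0.00863 intronic peaks per kb. At that cutoff 4 members had a transcript-end peak, 4 an intronic peak, 1 a tallest intronic peak at least as high as its end and 0 a downstream peak. With the canonical transcript only, 68.8% were in introns and 6.42% at transcript ends. Leaving out peaks shared with another gene left 2 members with a downstream peak. The hexamer share was 28.3% with AATAAA alone, 38.9% with AATAAA and ATTAAA and 38.1% with the window ending at the summit, and the A stretch share was 17.7% with at least 18 A. Of the alternatives added after the data were seen, asking for at least 3 peaks in each part of the gene gave 3 members of 5 with higher background in the first 50%, and the 200 genes nearest in length left 3 members above the upper quartile and 1 below the lower. Leaving shared peaks out of all genes gave the same counts with other members, PRKDC in place of POLL above and NHEJ1 in place of XRCC4 below. No paired analysis was possible because values exist only for the merged reads, and for the same reason no replicate could be left out. The depth of each library is unknown, and the lowest member peaks had 7 reads.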
